A study of Mus musculus with 16 samples.

Results

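Lrrc4b, Penk, Inmt and Tnip3 are 4 of the 22372 genes in the table of mouse ventricle RNA, and all 4 were among the 13331 genes that passed the filter on low counts and were tested. They were chosen by their rows in that table because they were higher in TAC hearts given THZ1 than in TAC hearts given vehicle, and the 4 groups were then read side by side to see whether the treated level lay at, below or above the sham level. The contrast that chose them is given as a description and carries no test. Both of its arms also enter other comparisons, and the bias from the choice is stated there. Each group held 4 C57BL/6J mice that were 10 to 12 weeks old at the start, with 1 library of ventricle RNA per mouse. TAC, or transverse aortic constriction, narrows the aortic arch with a suture so that the left ventricle pumps against a raised pressure, and sham mice had the operation without the suture. THZ1 is a small-molecule inhibitor of the transcription kinases CDK7, CDK12 and CDK13. Mice of the Sham-THZ1 and TAC-THZ1 groups received it at 10 mg/kg by intraperitoneal injection, which per the labels meant 2 doses daily between day 1 and day 60 of the postoperative period, and mice of the Sham-Veh and TAC-Veh groups received vehicle. The drug reached the whole animal and not the heart alone. The RNA came from pieces of whole ventricle, so that for every value below fewer cells of a type and less RNA per cell cannot be told apart.

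The 4 genes have no known common pathway. Lrrc4b encodes netrin-G ligand 3, a leucine-rich-repeat adhesion protein best known from synapses, where it binds receptor tyrosine phosphatases of the LAR family. Penk encodes preproenkephalin, which is cut into the Met- and Leu-enkephalin opioid peptides, and the rodent ventricle has long been known to contain its mRNA. Inmt encodes indolethylamine N-methyltransferase, which moves a methyl group from S-adenosylmethionine to tryptamine and related amines. Tnip3 encodes a protein that binds A20, the ubiquitin-editing inhibitor of NF-kB signalling encoded by Tnfaip3. Its paralogs Tnip1 and Tnip2 encode proteins that bind A20 too.

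The recovered depth was 21.4 to 35.8 M (mega) reads in genes per library, and the size factors ran from 0.749 to 1.40. The spread between mice was wider after TAC. On the log2 scale the median SD of a gene in the sham hearts was 0.098 with vehicle and 0.0916 with THZ1, and in the TAC hearts it was 0.218 with vehicle and 0.141 with THZ1. All 8 cardiomyocyte markers passed the filter on low counts, and their summed normalized counts were 1.44 M to 1.54 M in Sham-Veh. This sum ran from 0.7998 M to 1.14 M in TAC-Veh and from 1.26 M to 1.56 M in TAC-THZ1. In TAC-Veh 4 of the 8 were called lower, against 23.6% of all genes. The summed level of the 5 stressed cardiomyocyte markers, among them Nppa, Nppb and Myh7, was 39008 to 60803 in Sham-Veh, 319709 to 544432 in TAC-Veh and 113766 to 202868 in TAC-THZ1. The summed level of 9 fibroblast markers was 59368 to 66284 in Sham-Veh, 89390 to 120748 in TAC-Veh and 63695 to 85104 in TAC-THZ1. That of 6 activated fibroblast markers was 3373 to 4475 in Sham-Veh, 31081 to 95527 in TAC-Veh and 4359 to 11255 in TAC-THZ1. In Sham-THZ1 these sums, in the same order, were 1.46 M to 1.52 M, 25195 to 32805, 61734 to 65950 and 3613 to 4449. Only the stressed cardiomyocyte sum lay outside the Sham-Veh range there, below all its libraries, and none of its 5 genes was called for THZ1 in sham. Of 5 tested Schwann cell and neuron markers, 3 fell and 1 rose in TAC-Veh (median -1.16), where 45% of all genes were called in either direction. With THZ1 in TAC 1 rose and 1 fell (median 0.58), where 29.4% of all genes were called in either direction. The summed level of all 8 listed Schwann cell and neuron markers did not follow these medians. It was 280 to 311 in Sham-Veh, 215 to 406 in TAC-Veh and 199.8 to 244 in TAC-THZ1. The part of these shifts in cell markers in the changes of the 4 genes was not tested.

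**Figure D1:**
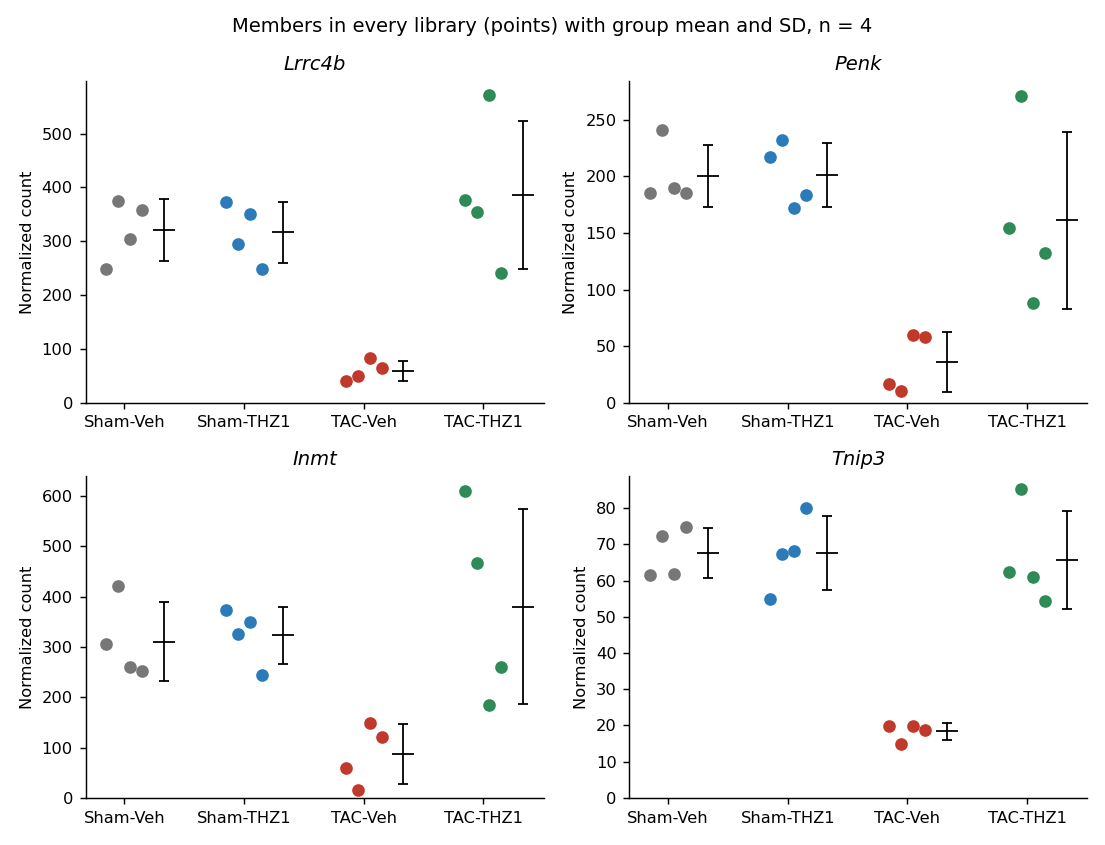
Normalized counts (vertical axis, linear, from 0) of Lrrc4b, Penk, Inmt and Tnip3 in the 16 libraries, by group on the horizontal axis. Each point is 1 mouse, and the black bars are the group mean with its SD (n = 4). In each panel the 4 TAC-Veh points lie below the points of the other 3 groups, and the Sham-Veh and Sham-THZ1 points overlap.

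Lrrc4b lies on chromosome 7 (NCBIM37, 51684388 to 51718721, plus strand, ENSMUSG00000047085), with 2929 exonic bases over 3 transcripts. Its normalized count was 248, 375, 305 and 357 in the 4 Sham-Veh libraries. It was 373, 295, 349.9 and 248 in Sham-THZ1, so the sham groups shared the same range. In TAC-Veh the values were 41.1, 49.3, 83.2 and 64.7, and in TAC-THZ1 they were 377, 355, 571 and 241. All 4 TAC-Veh libraries were lower than all libraries of the other groups, and the lowest TAC-THZ1 library still stood 2.90-fold above the highest TAC-Veh library. The group mean in sham hearts was 321 ± 57.2 with vehicle and 317 ± 56.2 with THZ1, and in TAC hearts 59.6 ± 18.5 with vehicle and 386 ± 137 with THZ1 (SD, n = 4 each). Of the 4 TAC-THZ1 libraries, 1 lay within the range of the 8 sham libraries, 1 lay below it and 2 lay above it.

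Penk lies on chromosome 4 (NCBIM37, 4060678 to 4065966, minus strand, ENSMUSG00000045573), with 1634 exonic bases over 2 transcripts. On the plus strand the annotation places the lincRNA A830012C17Rik, which shares 233 exonic bases with it and is not a row of the table. The count was made with strand, which separates the pair. Penk was at 186, 241, 190.1 and 185 normalized counts in Sham-Veh and at 217, 232, 172 and 183 in Sham-THZ1. In TAC hearts given vehicle it was at 16.5, 10.0, 59.4 and 57.9, which rest on 14, 14, 60 and 68 reads. In TAC-THZ1 the values were 154, 271, 87.9 and 133. The TAC-Veh libraries thus fell into a low and a higher pair, both below every other library. The group mean in sham hearts was 200.3 ± 27.0 with vehicle and 201 ± 28.2 with THZ1, and in TAC hearts 36.0 ± 26.4 with vehicle and 161 ± 78.2 with THZ1 (SD, n = 4 each). None of the TAC-THZ1 libraries lay in the sham range of 172 to 241: 3 lay below it and 1 above it.

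Inmt lies on chromosome 6 (NCBIM37, 55120620 to 55125037, minus strand, ENSMUSG00000003477), with 1600 exonic bases over 2 transcripts. Its normalized count was 307, 422, 261 and 253 in Sham-Veh and 373, 326, 349 and 244 in Sham-THZ1. In TAC-Veh it was 60.0, 16.4, 149 and 121, and in TAC-THZ1 it was 609, 467, 184 and 260.3. The TAC groups were the most scattered of all: the highest TAC-Veh library was 9.04-fold above the lowest, against 1.67-fold in Sham-Veh. The lowest TAC-THZ1 library was only 1.24-fold above the highest TAC-Veh library. The group mean in sham hearts was 311 ± 78.0 with vehicle and 323 ± 56.0 with THZ1, and in TAC hearts 86.5 ± 59.6 with vehicle and 380.2 ± 194 with THZ1 (SD, n = 4 each). In TAC-THZ1, 2 libraries exceeded the sham range, 1 lay inside it and 1 below it.

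Tnip3 lies on chromosome 6 (NCBIM37, 65540392 to 65584034, plus strand, ENSMUSG00000044162), with 3891 exonic bases over 4 transcripts. Its normalized count was 61.5, 72.2, 61.9 and 74.7 in Sham-Veh and 54.9, 67.4, 68.1 and 80.0 in Sham-THZ1. In TAC-Veh it was 20.0, 15.02, 19.8 and 18.7, from 17 to 22 reads per library. In TAC-THZ1 it was 62.2, 85.3, 61.0 and 54.4. Its SD on the log2 scale was 0.14 to 0.27 in the 4 groups, the smallest of the 4 genes except in Sham-THZ1, where Penk had 0.202 and Tnip3 0.22. Its lowest TAC-THZ1 library was 2.72-fold above its highest TAC-Veh library. The group mean in sham hearts was 67.6 ± 6.85 with vehicle and 67.6 ± 10.3 with THZ1, and in TAC hearts 18.4 ± 2.32 with vehicle and 65.7 ± 13.5 with THZ1 (SD, n = 4 each). Of the TAC-THZ1 libraries 2 lay within the sham range, 1 below and 1 above. The summed count of 5 neutrophil markers was 7039, 939.5, 3025 and 206 in TAC-THZ1 replicates 1 to 4, against 49.9 to 97.3 in Sham-Veh, 80.0 to 537 in Sham-THZ1 and 121 to 276 in TAC-Veh. Replicates 1, 2 and 3 of TAC-THZ1 were above every library of the other groups in these markers. Tnip3 was highest in replicate 2 and the markers in replicate 1, and their part in the Tnip3 level was not tested.

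Per kilobase of exon, Inmt was the most abundant of the 4 in sham hearts, at 194 ± 48.7 normalized counts in Sham-Veh. Penk at 123 ± 16.5 and Lrrc4b at 109.8 ± 19.5 were close to each other, and their SDs overlapped. Tnip3 was the least abundant, at 17.4 ± 1.76. In TAC-Veh the per-kilobase levels were 54.1 for Inmt, 22.01 for Penk, 20.4 for Lrrc4b and 4.73 for Tnip3, which is the same order. In TAC-THZ1 they were 238 for Inmt, 131.8 for Lrrc4b, 98.8 for Penk and 16.9 for Tnip3, so that Lrrc4b and Penk changed places, with overlapping SDs of 46.7 and 47.8.

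THZ1 had no detectable effect on any of the 4 genes in sham hearts, and this is the comparison in which no library had chosen them. Sham-THZ1 differed from Sham-Veh by -0.02 for Lrrc4b, 0.01 for Penk, 0.07 for Inmt and -0.01 for Tnip3 on the log2(normalized count + 1) scale. The adjusted p-values were 0.997 for Inmt and 1.00 for the other 3 (limma, Benjamini-Hochberg over all genes tested). The 95% intervals as ratios were 0.785 to 1.26 for Tnip3 and 0.695 to 1.40 for Lrrc4b, and they were wider for Penk, at 0.528 to 1.91, and for Inmt, at 0.502 to 2.19. None of the 4 was called, against 0.0675% of all genes. A smaller change than these intervals was not detectable with 4 mice per group, and the intervals for Penk and Inmt draw on a spread that was shared with the more variable TAC groups.

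All 4 genes were lower in TAC-Veh than in Sham-Veh. TAC-Veh is an arm of the contrast that chose them and is therefore biased low for them, so these differences may overstate the loss. For the same reason their adjusted p-values and places are a description and no support. Penk was 6.96-fold lower (log2 change -2.80, SE 0.44, adjusted p = 9.99e-05). Lrrc4b was 5.44-fold lower (-2.44, SE 0.24, adjusted p = 1.29e-06), Inmt 4.59-fold lower (-2.20, SE 0.50, adjusted p = 0.00211) and Tnip3 3.54-fold lower (-1.83, SE 0.16, adjusted p = 5.63e-07). In the list of all 13331 genes ordered from the most reduced, they took places 21, 42, 56 and 108. A lower level in TAC-Veh was called for 23.6% of all genes and a change in either direction for 45%. For 15.7% of all genes, as for these 4, every TAC-Veh library lay below every sham library.

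THZ1 in TAC hearts is the contrast on which the 4 genes were selected. TAC-THZ1 was above TAC-Veh by 2.66 for Lrrc4b, 2.38 for Penk, 2.37 for Inmt and 1.77 for Tnip3 on the log2 scale, or 6.31-, 5.20-, 5.16- and 3.41-fold. They stood at places 9, 14, 15 and 45 from the top of all genes in this contrast, in which 15.1% of genes were called higher and 29.4% were called in either direction. The same contrast minus that in sham hearts gave 2.68, 2.37, 2.30 and 1.78. The drug difference in TAC hearts was thus almost the whole of the interaction for each gene.

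None of the 4 genes was called above or below the sham level in THZ1-treated TAC hearts. TAC-THZ1 is the other arm of the choosing contrast and is biased high for these genes. Against Sham-Veh the log2 difference was 0.21 for Lrrc4b (95% interval as a ratio 0.818 to 1.65, adjusted p = 0.546) and -0.42 for Penk (0.393 to 1.42, adjusted p = 0.519). It was 0.17 for Inmt (0.538 to 2.35, adjusted p = 0.837) and -0.05 for Tnip3 (0.760 to 1.22, adjusted p = 0.838), where all 4 p-values are from limma. Without TAC-THZ1 replicate 1, the library highest in Inmt, the Inmt difference was -0.11. In this comparison 22.7% of all genes were called. Against Sham-THZ1, where both groups had the drug, the differences were 0.24, -0.42, 0.10 and -0.05, with adjusted p-values from limma of 0.497, 0.509, 0.907 and 0.858, and 24.2% of all genes were called. An overshoot of more than 1.22-fold for Tnip3 lies outside its interval, whereas for Inmt an excess of up to 2.35-fold or a shortfall to 0.538 of the sham level does not. As a share of the log2 loss in TAC-Veh, the level in TAC-THZ1 stood at 109% for Lrrc4b, 108% for Inmt, 97.1% for Tnip3 and 85.0% for Penk, shares that carry the errors of both differences. All 5 stressed cardiomyocyte markers were called higher in TAC-THZ1 than in Sham-Veh, with a median log2 difference of 2.93. Of all 13331 genes, 1453 were called higher. Of the 6 activated fibroblast markers 4 were higher and 0 lower (median 1.57). Other lists lay near the sham level: 0 of 8 cardiomyocyte markers were higher and 2 lower (median 0.0018). Of the 9 fibroblast markers 2 were higher and 0 lower (median 0.05).

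**Figure D2:**
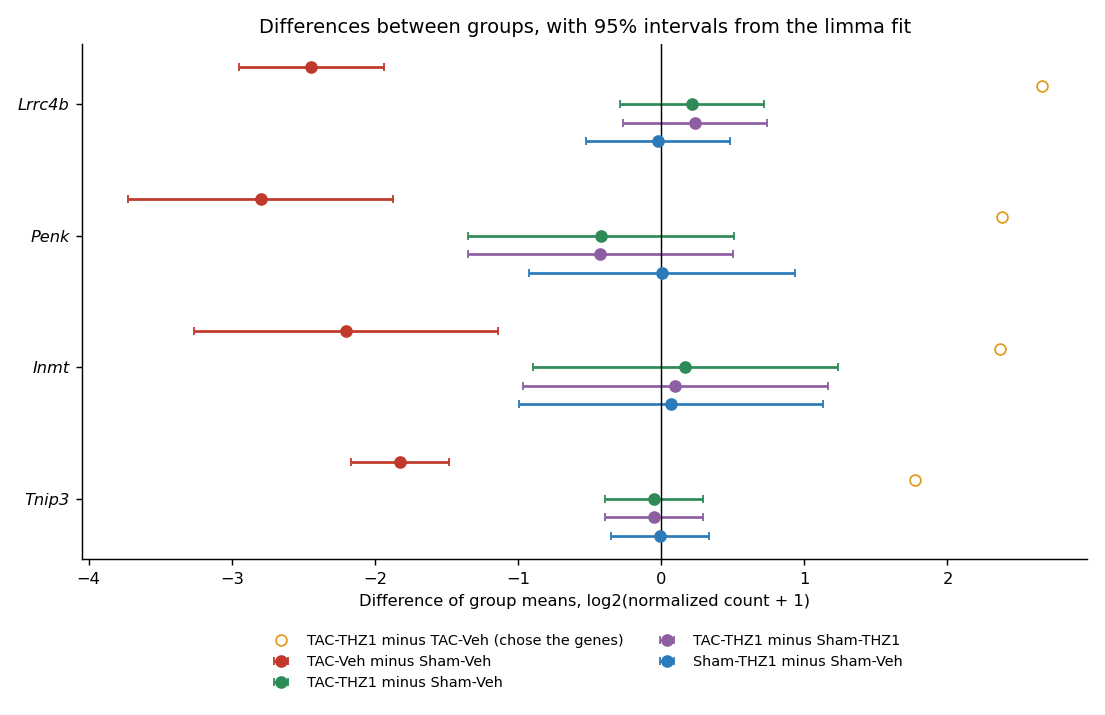
Differences between group means on the log2(normalized count + 1) scale (horizontal axis) for each gene, with 95% intervals from the limma fit. Filled points are the 4 comparisons with intervals and the open circle is the contrast that chose the genes, drawn without one. The TAC-Veh intervals lie below 0 for all 4 genes, and those of TAC-THZ1 and Sham-THZ1 against the sham groups include 0 and are narrowest for Tnip3.

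The libraries within a group differed in their levels of these genes. After the group means were removed, Penk and Inmt varied together over the 16 libraries with r = 0.880, while the other 5 pairs had r between 0.0886 and 0.462. These values are a description over libraries that share their size factors. In TAC-Veh, Penk and Inmt were both lowest in replicate 2 and next lowest in replicate 1. Lrrc4b was lowest in the same 2 libraries and, like Penk and Inmt, highest in replicate 3. Tnip3 did not follow this order: it was lowest in replicate 2, at 15.02, and highest in replicate 1, at 20.0. Replicates 2 and 1 had the highest Nppa, at 112703 and 199788 normalized counts, against 54193 and 49208 in replicates 3 and 4. In TAC-THZ1, replicate 3 was lowest in Penk and Inmt and had the highest Nppa (42633) and Postn (6054), the latter a product of activated fibroblasts. Replicate 2 was highest in Penk and Tnip3 and lowest in Nppa (12865) and Postn (2029). Inmt was highest in replicate 1, at 609, the library with the next highest Nppa (35178). Lrrc4b was highest in replicate 3, at 571. With 4 mice in a group these orders were not tested.

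**Figure D3:**
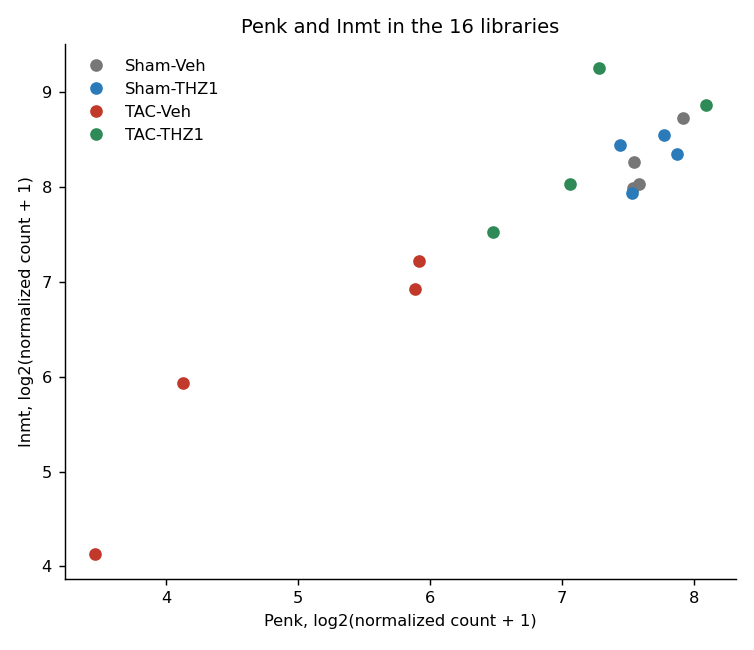
Penk (horizontal axis) against Inmt (vertical axis) on the log2(normalized count + 1) scale, with 1 point per library and a colour per group. The 4 TAC-Veh points extend to the lower left, down to 10.0 normalized counts for Penk and 16.4 for Inmt, and TAC-THZ1 replicate 3 is the treated point nearest to them.

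The genes with the most similar patterns over all 16 libraries were sought among the 11298 genes whose normalized counts averaged 50 or more, by the Pearson r of the log2 values. Differences between the groups enter this r, and it is given as a description. For Penk the 5 closest were Rpl3l, a ribosomal protein gene of striated muscle (r = 0.984), Sord, sorbitol dehydrogenase (0.982), Stard10 (0.981), Sbk1 (0.980) and Bckdhb, a subunit of branched-chain ketoacid dehydrogenase (0.979). Rpl3l was at 5473 ± 189 normalized counts in Sham-Veh, 2367 ± 820.4 in TAC-Veh and 5253 ± 859 in TAC-THZ1. For Inmt they were Pxmp2, a peroxisomal membrane protein (0.969), D16H22S680E (0.953), 5730469M10Rik (0.947), Gstm1, a glutathione transferase (0.945), and Egln1, an oxygen-sensing prolyl hydroxylase (0.943). For Lrrc4b they were Gpaa1 (0.948), Gpt, alanine aminotransferase (0.945), Ankrd33b (0.944), Slc2a4, the insulin-responsive glucose transporter (0.941), and Asb10 (0.939). For Tnip3 they were Mpv17, a mitochondrial inner membrane protein (0.972), 4930534B04Rik (0.966), Hnmt, histamine N-methyltransferase (0.957), Dhrs11 (0.954) and Crip2 (0.952). Genes with r above 0.9 numbered 452 for Penk, 221 for Tnip3, 83 for Lrrc4b and 76 for Inmt. By the ratio of group means no neighbour was as far down in TAC-Veh as its member: Gpaa1 went from 428 ± 25.7 in Sham-Veh to 354 ± 27.8 in TAC-Veh, where Lrrc4b went from 321 to 59.6.

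None of the relatives of Lrrc4b or other genes of netrin-G and LAR adhesion below was called both lower in TAC-Veh and higher with THZ1 in TAC. The other netrin-G ligand genes were low: Lrrc4 was at 6.58 ± 3.37 normalized counts in Sham-Veh and 10.3 ± 2.02 in TAC-Veh, and Lrrc4c at 21.5 ± 2.58 and 19.1 ± 3.76. Neither was called in any of the 5 contrasts. Of the netrin-G genes, Ntng1 was at 0 in all libraries of the other 3 groups and reached 1.18 in 1 TAC-Veh library, and Ntng2 was at 196 ± 23.9 in Sham-Veh with no call. The LAR-family phosphatases that bind netrin-G ligand 3 split by direction in TAC-Veh. Ptprf rose by 0.66 (SE 0.20, adjusted p = 0.0142, limma), and Ptprd and Ptprs fell by 0.70 (adjusted p = 0.000361) and 0.34 (adjusted p = 0.0195). With THZ1 in TAC, Ptprf fell by 0.64 (adjusted p = 0.0262), and Ptprd and Ptprs differed by 0.16 and 0.08 with no call. Of 17 tested genes out of 25 listed for netrin-G and LAR adhesion, 4 rose and 3 fell in TAC-Veh, where 45% of all genes were called in either direction, with a median of 0.08 against -0.00302 for all genes. With THZ1 in TAC, 0 rose and 6 fell, where 29.4% of all genes were called in either direction (median -0.14, all genes 0.01), led by Il1rap, a LAR partner and interleukin-1 receptor subunit (-0.70, adjusted p = 0.000588), the liprin Ppfibp1 (-0.52, adjusted p = 0.000855) and the scaffold Dlg4 (-0.55, adjusted p = 0.00905). A fit of the TAC groups alone called 3 lower and gave an adjusted p of 0.116 for Ptprf and 0.0667 for Dlg4, and a fit of the vehicle groups alone gave 0.0729 for Ptprs in TAC-Veh.

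Penk was the one opioid precursor that passed the filter. Pdyn, Pomc and Pnoc averaged at most 3.61 normalized counts in any group and were not tested. The receptors for enkephalins were nearly absent from the same RNA: Oprm1 was at 0 in all 16 libraries, which allows up to 3 reads in each, and Oprd1, the delta receptor, was at 8.29 ± 2.59 in Sham-Veh, 2.096 ± 2.65 in TAC-Veh and 2.54 ± 1.23 in TAC-THZ1. Oprd1 was called lower in TAC-Veh (adjusted p = 0.00697, limma) from a handful of reads. Oprk1 and Oprl1 averaged at most 1.48 in any group, and Ogfr, which binds Met-enkephalin but is no classical opioid receptor, was at 880.1 ± 22.2 in Sham-Veh and was not called. Of the enzymes that cut out the peptides, Pcsk1 and Pcsk2 averaged at most 3.99, and Cpe was at 5571 ± 157 in Sham-Veh and 5607 ± 377 in TAC-Veh. The proteases Ctsl and Furin, named after their values were seen, changed in TAC-Veh: Ctsl rose by 0.56 (adjusted p = 0.000524) and Furin fell by 0.30 (adjusted p = 0.00857, limma). Neither was called for THZ1 in TAC.

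The enzymes that degrade enkephalins moved in different directions. Mme, which encodes neprilysin, had the shape of Penk, at 193 ± 15.2 in Sham-Veh, 62.1 ± 43.4 in TAC-Veh and 136 ± 29.1 in TAC-THZ1. It fell by 1.96 in TAC-Veh (adjusted p = 0.000868) and rose by 1.43 with THZ1 in TAC (adjusted p = 0.0131, limma). Ace, angiotensin-converting enzyme, did the opposite, at 1941 ± 109, 5584 ± 1104 and 2110 ± 226 in the same 3 groups, rising by 1.502 and then falling by 1.39. Dpp3 rose by 0.32 and then fell by 0.26, and Ece2 rose by 0.93 and then fell by 0.51. Ece1 fell by 0.41 with THZ1 in TAC, and Anpep, aminopeptidase N, fell by 0.50 in TAC-Veh (adjusted p = 0.0207, and 0.0582 with the vehicle groups alone). Npepps fell by 0.63 in TAC-Veh (adjusted p = 0.000139, limma) and was not called with THZ1 in TAC. Of 12 tested genes out of 22 listed for the opioid system, 4 rose and 5 fell in TAC-Veh (median -0.02, all genes -0.00302), and 1 rose and 4 fell with THZ1 in TAC (median -0.05, all genes 0.01). Of all genes, 45% and 29.4% were called in these 2 contrasts. With only the TAC groups in the fit, Mme had an adjusted p of 0.0944, Dpp3 of 0.126 and Ece1 of 0.0833, and 1 gene of the list, Ace, was still called.

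Nnmt, the closest relative of Inmt and likewise an S-adenosylmethionine-dependent methyltransferase, moved the other way. In sham hearts it was at 49.4 ± 12.7 normalized counts with vehicle and 57.8 ± 6.22 with THZ1, and in TAC hearts at 130.2 ± 35.4 and 76.5 ± 13.9. It rose by 1.38 in TAC-Veh (SE 0.21, adjusted p = 6.68e-05) and fell by 0.74 with THZ1 in TAC (adjusted p = 0.0140, limma; 0.0533 with the TAC groups alone). Pnmt, which methylates noradrenaline, was at 12.2 ± 3.40 in Sham-Veh with no call, and so was Ahcy, which clears the product of the methyl transfer, at 142 ± 8.92. Ddc, the decarboxylase that forms tryptamine, had the shape of Inmt, at 70.5 ± 10.6, 32.9 ± 7.62 and 96.8 ± 28.7 in Sham-Veh, TAC-Veh and TAC-THZ1. It fell by 1.09 and rose by 1.51 (adjusted p = 0.000493 and 0.000148). The tryptamine-degrading Maob fell by 1.34 and rose by 0.77, and Aldh2 fell by 0.87 and rose by 0.62. In TAC-THZ1 Maob was still called below Sham-Veh (log2 difference -0.57, adjusted p = 0.00413, limma). Aldh2 was not called there but was below Sham-THZ1 (-0.32, adjusted p = 0.0293, limma). Maoa, listed with them and named after its values were seen, went the other way. It rose by 0.51 in TAC-Veh (adjusted p = 0.00381, limma) and differed by -0.20 with THZ1 in TAC, with no call for the latter. Mat2a, which makes S-adenosylmethionine, fell by 0.26 and rose by 0.20 (adjusted p = 0.0413 for the latter). Gnmt, a glycine methyltransferase named after its values were seen, was at 42.8 ± 6.16, 14.03 ± 8.02 and 54.4 ± 14.5 in those 3 groups. Of 16 tested genes out of 19 listed, 2 rose and 7 fell in TAC-Veh (median -0.23, all genes -0.00302), and 7 rose and 1 fell with THZ1 in TAC (median 0.21, all genes 0.01). Of all genes, 23.6% were called lower and 45% in either direction in TAC-Veh, and 15.1% higher and 29.4% in either direction with THZ1 in TAC. With only the TAC groups in the fit, 4 rose and 0 fell.

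The 2 other A20-binding genes, Tnip1 and Tnip2, also moved against Tnip3. Tnip1 was at 824 ± 24.0 normalized counts in Sham-Veh, 1334 ± 76.2 in TAC-Veh and 1091 ± 107 in TAC-THZ1, and Tnip2 at 274 ± 26.2, 421 ± 58.8 and 330.0 ± 38.6. In TAC-Veh Tnip1 rose by 0.69 (SE 0.07) and Tnip2 by 0.61 (SE 0.11), and with THZ1 in TAC they fell by 0.29 (adjusted p = 0.00506) and 0.35 (adjusted p = 0.0253, limma). Tnip1 stayed above Sham-Veh in TAC-THZ1, by 0.40 (adjusted p = 0.00179). With only the TAC groups in the fit the drug differences had adjusted p-values of 0.0652 and 0.103. Their partner Tnfaip3 was at 97.2 ± 4.87 in Sham-Veh and 108 ± 13.7 in TAC-Veh, and the NF-kB inhibitor gene Nfkbia at 900.4 ± 156 and 1172 ± 732. Neither was called in any of the 5 contrasts. Sod2, mitochondrial superoxide dismutase and an NF-kB target, fell by 0.56 in TAC-Veh and rose by 0.52 with THZ1 in TAC (adjusted p = 0.000621). The ubiquitin ligase Itch fell by 0.21 with THZ1 in TAC (adjusted p = 0.0143) and Nfkb1 by 0.19 (adjusted p = 0.0287). Of 32 tested genes out of 33 listed for A20 and NF-kB feedback, 7 rose and 3 fell in TAC-Veh (median 0.12, all genes -0.00302), and 3 rose and 4 fell with THZ1 in TAC (median -0.02, all genes 0.01), where 45% and 29.4% of all genes were called. In the fit of the TAC groups alone the latter counts were 1 and 0. None of the genes of the 4 lists was called for THZ1 in sham hearts, where only 0.0675% of all genes were called. In the fit of the sham groups alone, 2 of the opioid list and 1 of the A20 list were called higher, as were 287 of all 13331 genes.

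**Figure D4:**
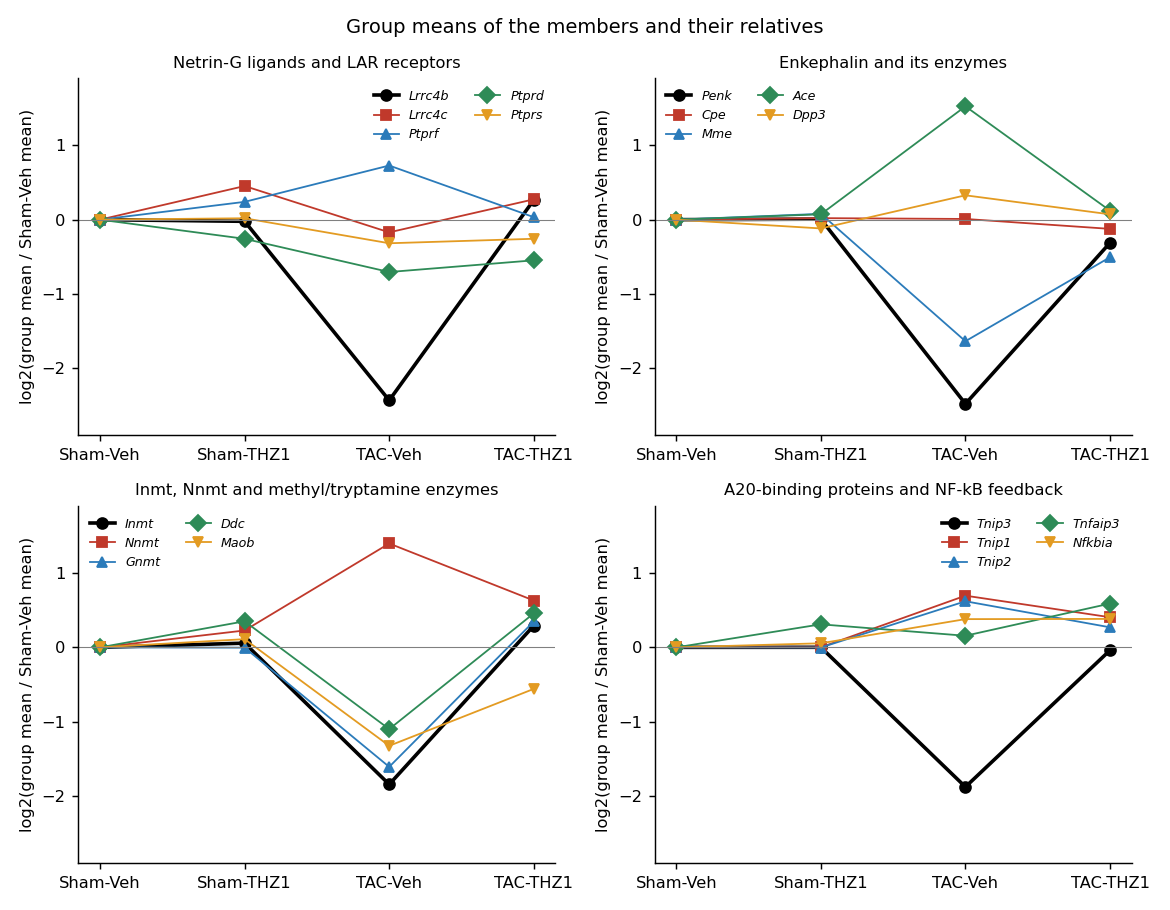
Group means relative to the Sham-Veh mean, as the log2 ratio of normalized counts (vertical axis), for each of the 4 genes in black and 4 relatives or partners in colour, across the 4 groups on the horizontal axis. Lines join the means of one gene (n = 4 mice per group) and do not mark a time course. Nnmt, Tnip1, Tnip2, Ptprf and Ace lie above 0 in TAC-Veh, where the 4 genes lie below -1.

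As a description, the 250 bases before the annotated start were read for those of the 4 genes with an entry in the RefSeq promoter windows. These windows are on GRCm38.p6, a newer build than that of the gene positions above. The shared direction of the 4 genes with THZ1 in TAC was set by their choice and is no sign of a shared promoter sequence. Windows were found for Lrrc4b, Inmt and Tnip3. Matches in capitals, read on both strands, are the TATA box (TATAAA), the CCAAT box, which has the letters of its name, and the NF-kB site. The last was taken as GGGA followed after any 4 bases by CC. The Lrrc4b window is chr7:44442237-44442486 on the plus strand, that of Inmt is chr6:55174991-55175240 on the minus strand, and that of Tnip3 is chr6:65590148-65590397 on the plus strand.
Lrrc4b: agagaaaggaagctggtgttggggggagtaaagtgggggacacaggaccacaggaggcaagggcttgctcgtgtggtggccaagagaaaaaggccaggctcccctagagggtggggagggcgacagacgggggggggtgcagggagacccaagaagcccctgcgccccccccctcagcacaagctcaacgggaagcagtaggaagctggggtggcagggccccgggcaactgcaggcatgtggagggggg
Inmt: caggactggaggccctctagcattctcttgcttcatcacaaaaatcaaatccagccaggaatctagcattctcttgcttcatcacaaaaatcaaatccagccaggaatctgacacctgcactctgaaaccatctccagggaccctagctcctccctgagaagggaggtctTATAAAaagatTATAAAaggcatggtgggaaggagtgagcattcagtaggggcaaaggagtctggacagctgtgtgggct
Tnip3: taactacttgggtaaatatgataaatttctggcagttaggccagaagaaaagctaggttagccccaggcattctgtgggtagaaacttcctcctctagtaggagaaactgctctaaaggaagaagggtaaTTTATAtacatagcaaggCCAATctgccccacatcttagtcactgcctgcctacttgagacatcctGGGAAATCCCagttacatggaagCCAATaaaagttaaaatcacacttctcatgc
The 3 windows had little in common. Their GC content was 66% for Lrrc4b, 48% for Inmt and 42.4% for Tnip3, against a median of 52.4% over 32851 windows. The Inmt window held 2 TATAAA matches whose first bases lie 80 and 69 bases before the start, and a run of 49 bases that occurs at 235 and again at 189 bases before the start, 46 bases apart, so that its copies overlap by their ends. The Tnip3 window held CCAAT at 102 and 31 bases, TATAAA on the opposite strand at 120 bases and GGGAAATCCC, which fits the NF-kB site on both strands, at 54 bases before the start. The Lrrc4b window held none of these. Over all windows of this length, 12.4% held TATAAA, 33.8% CCAAT and 17.6% the NF-kB site. A cyclic AMP response element (TGACGTCA, in 1.55% of windows), an AP-1 site (TGANTCA, 6.75%), an E-box (CACGTG, 6.02%), the core of the xenobiotic response element (GCGTG, 28.2%) and a MEF2 site (CTA, any 4 bases, then TAG, 3.20%) were searched too and matched none of the 3 windows. A match is a run of letters and was not tested as a binding site.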

How the data were processed

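Ventricle RNA of 16 mice was sequenced as stranded mRNA libraries. The deposited signal is a normalized count per gene and library: the authors aligned reads to mm9 with TopHat2 2.1.1, counted reads per GENCODE gene with HTSeq in its reverse-stranded mode, and divided by DESeq2 size factors. Per the labels THZ1 was given at 10 mg/kg with 2 doses per day, whereas the methods describe a single daily injection of a higher dose. The values were whole multiples of a step, and dividing by it gave whole reads for 100% of values (tolerance 0.01), in 21.4 to 35.8 M (mega) reads per library.

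The 4 genes and the gene lists were chosen with earlier results of these data known. Genes with at least 10 normalized counts in at least 4 libraries were tested by limma 3.58.1 (R 4.3.3) on the log2 of the normalized count plus 1. The fit took all 16 libraries, gave each group its own mean, and used a trended spread and Benjamini-Hochberg adjustment over 13331 genes. A gene is called at an adjusted p under 0.05. Further genes were named if they were a paralog, ligand, receptor, maker or breaker of a member, among the 3 smallest adjusted p-values of a list for THZ1 in TAC, or among the 5 most similar patterns. Symbols and exon lengths came from the GENCODE annotation on NCBIM37, which matched all 22372 rows. Alternatives were other pseudocounts, filters, scalings and weights, a robust fit, a replicate block, fits of only the groups compared, edgeR 4.0.16 and DESeq2 1.42.0 on the recovered reads, and leaving out each library. The procedure was tested on simulated data. Replicates are different mice. Replicate numbers did not pair the groups.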

Additional observations from a re-analysis of the deposited data

Results flagged for a closer look

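Penk in Sham-Veh had 1 library apart from the others. Replicate 2 was at 241 normalized counts, against 185 to 190.1 in the other 3 libraries, and its gap to the nearest of them took 0.908 of the range of the group. Chance sets a library apart in this way in about 1 in 20 groups, and 16 sets of 4 libraries were examined. Without this library the difference between Sham-THZ1 and Sham-Veh was 0.10 on the log2 scale, against 0.01 with it, and neither passed the test.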

How the results depend on the processing

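The difference of TAC-Veh from Sham-Veh rests for the 4 genes on TAC-Veh libraries that also chose them, so its range over the 28 alternatives is a description and no support. It was called under each, with log2 changes of -2.62 to -2.29 for Lrrc4b, -3.16 to -2.34 for Penk, -2.59 to -1.56 for Inmt and -1.98 to -1.63 for Tnip3. Of 668 values of the 4 genes over the alternatives, 24 changed sign, all of them differences near 0 that passed no test. For THZ1 in sham, leaving out 1 library gave -0.14 to 0.089 for Lrrc4b, -0.067 to 0.096 for Penk, -0.019 to 0.23 for Inmt and -0.090 to 0.088 for Tnip3, and Tnip3 was at 0.0017 under quantile normalization and 0.0064 with DESeq2. Leaving out 1 library gave -0.11 to 0.47 for Inmt and -0.18 to 0.029 for Tnip3 in TAC-THZ1 against Sham-Veh, and -0.18 to 0.40 and -0.18 to 0.037 against Sham-THZ1.

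Counts over all genes moved more. For THZ1 in sham, 3 genes were higher and 6 lower, and these counts were 13 and 20 with DESeq2, 287 and 178 with only the sham groups in the fit, 254 and 259 with array weights, and 1 to 6 and 2 to 9 with 1 library left out. For THZ1 in TAC, 2019 genes were higher and 1899 lower, and these counts were 583 and 816 with only the TAC groups and 1310 and 1102 with array weights. For TAC-THZ1 against Sham-Veh, 1453 and 1577 became 2335 and 2506 with array weights, and 835 to 1943 and 955 to 2122 with 1 library left out. Against Sham-THZ1, 1514 and 1706 became 2379 and 2632, and 889 to 1990 and 1089 to 2210. The lowest counts came without Sham-Veh replicate 2 or TAC-THZ1 replicate 1. The cause was not tested. Of 120 counts in the gene lists, 18 moved by more than 1.5 times.

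Same-numbered libraries did not deviate together (r of -0.43 to 0.16, with 2 of 24 pairs above 0.1). Each group held each replicate number once, so a block on that number cannot alter a difference of group means. The TAC-Veh changes of the 4 genes therefore stayed at -2.44, -2.80, -2.20 and -1.83, which is no check of them. With the block their adjusted p-values from limma were 4.75e-06, 0.000439, 0.00495 and 6.97e-06, from TAC-Veh libraries that also chose the genes. No call of the 4 genes changed. Depth limits the low values most: Penk rested on 14 reads in each of 2 TAC-Veh libraries.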
